A study of Mus musculus with 18 samples.

Results

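The regions described here are the 13366 KAP1 peaks called in Hepa 1.6 cells, split by whether the same interval was also in the list of SETDB1 peaks from that line. Of these peaks, 2957 (22.1%, with an exact 95% confidence interval, CI, of 21.4% to 22.8%) were shared with SETDB1, and the other 10409 are called KAP1-only peaks below. All 2957 entries of the SETDB1 list had the coordinates, the name and the score of a KAP1 peak. The score of a shared peak is therefore its KAP1 score, and neither the height of the SETDB1 signal nor SETDB1 sites away from KAP1 are analysed here.

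Hepa 1.6 (Hepa 1-6) is a mouse hepatoma line derived from the BW7756 tumour of a C57L animal and is wild type for Kap1. Chromatin from it was immunoprecipitated with a rabbit polyclonal serum to KAP1 or with a published antibody to SETDB1, with 1 library for each. The peaks were also compared with H3K27ac and H3K9me3 peaks of C57BL/6 (C57BL/6J in the paper's methods) mouse embryonic fibroblasts (MEFs), either wild type (Kap1 loxP/loxP) or Kap1 KO, again with 1 library for each mark and genotype. MEFs differ from the hepatoma in cell type and strain, so a mark there describes the locus in fibroblasts. The lists give positions on mm9 and a peak caller's score but no read depth, and all intervals below cover counting error over peaks, which are not independent of their neighbours.

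KAP1 (TRIM28) is a corepressor that KRAB zinc finger proteins bring to the DNA sequences they recognise, among them retroelements, imprinting control regions and the 3' exons of zinc finger genes. It acts as a scaffold for the histone methyltransferase SETDB1, which deposits H3K9me3, and for HP1 proteins. KAP1 has also been mapped to promoters and to other sites that lack this mark.

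Shared peaks had higher KAP1 scores and were wider than KAP1-only peaks. The median score was 196 (quartiles 119 and 566) for shared peaks and 141 (103 and 224) for KAP1-only peaks, a ratio of 1.39. The median width was 791 bp (quartiles 656 and 1050) against 683 bp (606 and 835), and the difference of 108 bp fell to 40 bp once KAP1-only peaks were weighted to the scores of shared peaks. The score distributions overlapped through most of their range and parted in the upper tail, since the 90th percentile was 1462 for shared and 382 for KAP1-only peaks. Both groups nevertheless reached the top of the scale. Scores piled up at 3100, a value held by 207 peaks and exceeded by 4, and of these 211 peaks 86 were shared and 125 were KAP1-only.

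When the peaks were divided into 10 classes of equal size by KAP1 score, the share with SETDB1 was between 14.4% and 25.4% in the lower 9 classes and 56.1% (CI 53.4% to 58.8%) in the highest, which began at a score of 558. The step was found at promoters, exons, introns and intergenic sites and was largest at promoters. Promoter peaks carried SETDB1 in 178 of 3789 cases (4.70%) in the lower 9 classes and in 326 of 493 cases (66.1%) in the highest. Exonic peaks went from 17.0% to 76.1%, intronic peaks from 20.0% to 55.6%, and intergenic peaks from 26.8% to 44.1%.

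Over all peaks the shared group held fewer promoters and more intergenic sequence, and both directions were turned round in the highest score class. A transcript start of the mm9 GENCODE annotation lay within 1 kb of 504 shared peaks (17.0%) and of 3778 KAP1-only peaks (36.3%), a difference of -19.3 percentage points (CI -20.9 to -17.6). Intergenic peaks made up 60.0% of the shared group (1775) and 43.1% of the KAP1-only group (4490), a difference of 16.9 points (CI 14.9 to 18.9), which was 26.9 points without the tenth of peaks with the highest score. In the highest score class below 3100, promoters made up 43.1% of shared and 26.0% of KAP1-only peaks, a difference of 17.1 points (CI 11.5 to 22.5), and intergenic sites 32.7% and 50.6%. At or above 3100 the intergenic shares were 29.1% and 58.4%, and the promoter difference of 8.91 points (CI -4.50 to 22.1) was not resolved. Introns held similar parts of both groups, 563 shared and 1886 KAP1-only peaks, and the difference in share of 0.921 points (CI -0.646 to 2.55) was not resolved. It was 1.73 points (CI 0.119 to 3.39) when protein-coding starts alone defined promoters and -1.93 points (CI -4.37 to 0.780) in single-copy sequence. Exons outside promoters were a small class in which shared peaks were more frequent, with 115 peaks (3.89%) against 255 (2.45%). The median distance to the closest transcript start was 18062 bp for shared and 6513 bp for KAP1-only peaks.

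Repeated sequence separated the groups more than the place classes did. For each peak the genomic copy number of the 24-base words in its middle 500 bp was counted, a measure chosen after the data had been seen, and the median over the words was taken. This median was 126 copies for shared peaks and 1 copy for KAP1-only peaks. Among the 2228 peaks with 100 or more copies, 1539 (69.1%, CI 67.1% to 71.0%) were shared, whereas among the 8836 peaks in single-copy sequence 874 (9.89%, CI 9.28% to 10.5%) were. The classes between them were intermediate, with 17.2% at 2 to 9 copies and 30.9% at 10 to 99 copies.

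The place of the peaks followed the copy class. Among single-copy peaks the intergenic shares of both groups were alike, 33.4% and 33.6%, and the difference of -0.188 points (CI -3.41 to 3.17) no longer favoured shared peaks. The promoter deficit of shared peaks shrank to -4.50 points (CI -7.90 to -1.03), with 41.1% against 45.6%. Among peaks with 100 or more copies, promoters were rare in both groups (2.01% and 1.60%) and intergenic sequence prevailed in both (76.2% and 77.2%). In the classes between them the differences were turned round, with intergenic differences of -21.2 points (CI -28.4 to -13.9) at 2 to 9 copies and -14.0 points (CI -20.1 to -7.98) at 10 to 99 copies, and promoters made up more of the shared than of the KAP1-only peaks, 26.9% against 9.05% and 17.2% against 6.21%. The intergenic excess of shared peaks over all classes combined was thus not seen within any copy class as a whole. The single-copy values also combined unlike parts. The promoter difference was -13.3 points (CI -18.3 to -7.97) in the lower 9 score classes and 9.62 points (CI 3.29 to 15.8) in the highest, and the intergenic difference was 11.5 points (CI 6.13 to 17.1) in the lower 9 score classes and -15.9 points (CI -21.9 to -9.82) in the highest.

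The share with SETDB1 rose with score at both ends of the copy scale, from very different levels. Single-copy shared peaks had a median score of 780 and a median width of 1006 bp, against 141 and 687 bp for single-copy KAP1-only peaks. In single-copy sequence the share with SETDB1 was 0.922% (8 of 868) in the lowest score class, 6.53% in the eighth, 15.2% in the ninth and 57.4% (547 of 953) in the highest. In sequence with 100 or more copies SETDB1 was present at most peaks whatever their score, from 166 of 282 peaks (58.9%) in the lowest class to 112 of 140 in the ninth, and the highest class held 24 shared peaks of 25. Shared peaks of this repeated class had a modest median score of 136, against 118 for KAP1-only peaks. How reads that map to several places were handled is not given in the sources used here, and its part in the scores over repeated sequence was not tested.

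A small number of sequence families accounted for a large part of the shared group. The 10 most frequent 24-base words, chosen greedily so that each peak was counted once, were found in 1507 shared peaks (51.0%) and in 1163 KAP1-only peaks (11.2%). The first family covered 1213 peaks on 20 chromosomes, of which 860 (70.9%, CI 68.2% to 73.4%) were shared, and 26.7% of its 5315 exact copies in the genome lay under a KAP1 peak. The second and the third family were similar, with SETDB1 at 313 of 413 peaks (75.8%) and at 163 of 212 peaks (76.9%). In the third family 58.0% of 1653 copies lay under a peak. The hexamer TGCCGC, on either strand, was present in the middle 500 bp of 97.4%, 98.6% and 83.5% of the peaks of these families.

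In other families most peaks were KAP1-only. The fifth family had 296 copies in the genome, of which 53.7% lay under a KAP1 peak, and its 150 peaks had a median score of 463, but 8 of them (5.33%, CI 2.33% to 10.2%) were shared. In MEFs H3K9me3 overlapped 28.9% of its KAP1-only peaks and 6 of its 8 shared peaks. Over all KAP1-only peaks the share was 12.1%, and over the intergenic ones 19.1%. It was 29.8% for KAP1-only peaks at 2 to 9 copies, 31.85% at 10 to 99 copies and 18.1% at 100 or more copies. The value of this family is thus near that of KAP1-only peaks at 2 to 99 copies. The fourth family, a word with 39913 copies, was shared at 10 of 170 peaks (5.88%), and 0.634% of its copies lay under a peak. At so low a rate, as at the 0.406% of the eighth family, the word describes sequence within these peaks and does not show that its copies bind KAP1. The remaining families ranged from 13.6% shared (15 of 110 peaks, the eighth) to 60.6% (80 of 132 peaks, the sixth). The number of copies in the genome thus did not order the families by their share with SETDB1. A window from a high-scoring peak of each of 4 families is printed to show the word and its surroundings, each on the strand given, in mm9 and outside annotated exons, with the word that defines the family in capitals. The first lies at chr1:71916793-71916912 (- strand, score 1946, shared), the second at chr2:70104164-70104283 (- strand, score 548, shared), the third at chr7:96422038-96422157 (- strand, score 747, shared) and the fifth at chr5:146085484-146085603 (+ strand, score 1519, KAP1-only).
family 1: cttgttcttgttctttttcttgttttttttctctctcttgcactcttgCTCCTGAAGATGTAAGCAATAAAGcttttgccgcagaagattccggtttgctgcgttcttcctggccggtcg
family 2: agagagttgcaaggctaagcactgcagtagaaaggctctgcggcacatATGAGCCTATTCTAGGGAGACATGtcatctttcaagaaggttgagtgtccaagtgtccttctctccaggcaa
family 3: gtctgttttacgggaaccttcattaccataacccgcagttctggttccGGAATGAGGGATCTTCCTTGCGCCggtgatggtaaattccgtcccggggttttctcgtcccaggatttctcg
family 5: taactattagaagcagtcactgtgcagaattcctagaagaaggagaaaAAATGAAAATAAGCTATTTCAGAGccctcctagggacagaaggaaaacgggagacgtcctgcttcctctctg

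Imprinted genes, which are expressed from a single parental allele, carried KAP1 peaks of very high score, and these were shared with SETDB1. Of 36 peaks at imprinted genes, 19 (52.8%, CI 35.5% to 69.6%) were shared, against 22.1% of all peaks. Most of these shared peaks belong to the highest score class, which began at a score of 558. In that class every peak at an imprinted gene was shared, against 56.1% of all peaks there. The median score was 3100 for the shared peaks and 132 for the 17 KAP1-only peaks, and the ranges did not overlap, since the lowest shared score was 277 (Kcnq1 intron) and the highest KAP1-only score was 274 (Commd1 intron). The shared peaks at 3100 lay at the promoters of Plagl1, a zinc finger transcription factor, of Mest, Inpp5f and Snrpn, at the Nespas transcript of the Gnas locus, at genes nested within others, namely Mcts2 in H13, Nap1l5 in Herc3, Zrsr1 in Commd1 and Nnat in Blcap, and in an intron of Trappc9. An exonic peak of Cdh15, which encodes a cadherin of muscle, had a score of 3168. Further shared promoters were Peg10 with Sgce (2744), Grb10 (2618), an adaptor that restrains growth signalling, Impact (2551), Peg3 (2041), Gpr1 (1913) and Cdkn1c (838), a cell cycle inhibitor. Several of these names go beyond the naming rule and were chosen after their values were seen. In MEFs H3K9me3 covered 11 of the 19 shared peaks and 1 of the 17 KAP1-only peaks, against 20.3% and 12.1% over all peaks, and 24 of the 29 imprinted genes with any peak had a shared one.

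The hexamer TGCCGC is the core of the sequence recognised by ZFP57, a KRAB zinc finger protein that maintains imprints. It was present in the middle 500 bp of 67.3% of shared and 30.7% of KAP1-only peaks, against 4.72% and 4.68% of windows of the same length 5 kb to either side and 23.7% of windows at coding transcript starts. Within single-copy sequence the shares were 57.6% and 29.6%, and at single-copy promoters 61.8% and 37.6%. The single-copy difference was 36.9 points (CI 30.8 to 42.6) in the highest score class and 10.3 points (CI 5.02 to 15.8) in the lower 9. The difference was not resolved at 10 to 99 copies, with 25.3% and 24.6% (CI of the difference -4.70 to 6.50 points), or at exons, with 59.1% and 52.2% (CI -3.99 to 17.5 points). A match to so short a word is a description of the sequence and not a binding site. Windows of 120 bases from 3 shared imprinted promoters show its repeated use, on the + strand of mm9 and outside annotated exons, with TGCCGC or its complement GCGGCA in capitals. They are chr2:152512591-152512710 (Mcts2, score 3100), chr7:135831470-135831589 (Inpp5f, score 3100) and chr1:63246762-63246881 (the Gpr1 locus, named after Gm11607, score 1913), and each holds 3 matches.
Mcts2: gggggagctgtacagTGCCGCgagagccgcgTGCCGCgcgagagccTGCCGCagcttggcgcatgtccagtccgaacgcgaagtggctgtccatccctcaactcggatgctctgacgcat
Inpp5f: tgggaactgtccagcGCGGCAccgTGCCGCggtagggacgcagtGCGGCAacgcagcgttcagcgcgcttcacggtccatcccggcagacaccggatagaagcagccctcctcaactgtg
Gm11607: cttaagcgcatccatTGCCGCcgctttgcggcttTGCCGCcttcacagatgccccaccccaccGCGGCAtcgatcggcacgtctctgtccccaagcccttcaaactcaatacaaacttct

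Zinc finger genes as a list had similar shares in both groups over all peaks, and their coding exons and promoters were shared to about the extent of all such sites. Shared peaks at zinc finger genes numbered 41 (1.39%) and KAP1-only peaks 129 (1.24%), a difference of 0.147 points (CI -0.283 to 0.674). It was 1.68 points (CI 0.684 to 3.07) among single-copy peaks, where 19.4% of peaks at these genes and 9.89% of all peaks were shared, and -0.482 points without the tenth of peaks with the highest score. In the highest score class 22 of 26 single-copy peaks at these genes (84.6%, CI 65.1% to 95.6%) were shared, against 57.4% of all single-copy peaks there. Of all single-copy peaks of that class with the middle in coding sequence, 137 of 172 (79.7%) were shared, a value within this interval. In the lower 9 classes the single-copy shares were 4.43% and 4.15%. At their promoters 8 of 83 peaks (9.64%, CI 4.25% to 18.1%) were shared, and at peaks with the middle in coding sequence away from promoters 24 of 56 (42.9%, CI 29.7% to 56.8%) were. Over all genes these shares were 11.8% of promoter peaks and 35.8% of coding-sequence peaks away from promoters, both within the intervals of the zinc finger genes. The coding-sequence peaks that were shared had a median score of 1178 and the others 210. The shared peaks with a score of 3100 were those at Zfp282, Zfp30, Zfp316, Zfp629, Zfp697, Zfp771, Zfp777, Zfp787 and Zfp865, some of which were named after their scores were seen. The highest KAP1-only scores at such genes were those of Zfp672 (1009), Zfp275 (990) and Zfp316 (974).

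Codons for TGEKP, the peptide that links neighbouring zinc fingers, were found in a reading frame of 82 shared peaks (2.77%) and 84 KAP1-only peaks (0.807%). Within listed zinc finger genes 27 of 63 peaks with a linker (42.9%) were shared, and outside these genes 55 of 103 (53.4%) were. The share with SETDB1 was therefore above the 22.1% of all peaks both inside and outside the listed genes. Inside them its CI of 30.46% to 55.95% includes the 35.8% of all coding-sequence peaks away from promoters. Outside them its CI of 43.3% to 63.3% does not. Of all 166 peaks with a linker, 50 were intergenic and 9 intronic, so that coding-sequence peaks are an unlike base for them. Copy class was not taken into account in this comparison. In MEFs 18 of the 27 shared linker peaks and 20 of the 36 KAP1-only linker peaks in these genes overlapped H3K9me3, so that the mark was found at most peaks of both groups. The difference between them was not tested. A window of a KAP1-only peak of Zfp930 at chr8:71752010-71752192 (+ strand of mm9, score 801) is printed to show how such a peak repeats the linker. The window is coding sequence, although the peak counts as a promoter peak by the rule used here. Capitals mark the linker codons, of which the window holds 3.
Zfp930: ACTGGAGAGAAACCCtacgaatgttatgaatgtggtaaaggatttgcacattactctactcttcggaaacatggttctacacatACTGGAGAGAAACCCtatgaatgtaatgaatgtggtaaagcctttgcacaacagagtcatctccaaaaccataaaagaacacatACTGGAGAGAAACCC

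Histone genes and the genes of the U1 to U5 small RNAs made up a class of shared peaks that differed from those above by its marks in MEFs. Of 37 peaks at histone genes, 29 (78.4%, CI 61.8% to 90.2%) were shared, with a median score of 258 against 107 for the other 8. At histone promoters 28 of 36 peaks were shared, while the shares were 22.1% over all peaks and 11.8% over all promoter peaks. These bases are unlike in copy class, since 16 of the 37 histone peaks lay in single-copy sequence. Over all promoter peaks the share was 9.002% in single-copy sequence and 38.26% at 2 to 9 copies. It was 55.34% at 10 to 99 copies and 73.81% at 100 or more copies. The share of histone peaks within each copy class was not tested. All 37 peaks overlapped H3K27ac in wild-type MEFs and 0 overlapped H3K9me3. Over all promoter peaks H3K27ac covered 50.8% of the shared and 86.2% of the KAP1-only group. Examples are the peaks at Hist2h2aa2 and Hist2h3c2 (score 912), Hist1h1c (855), which encodes a linker histone, Hist1h4i (764) and Hist1h1e with Hist1h2be (754). An exception among the KAP1-only peaks was a promoter peak of Hist1h4h with a score of 3100, while a neighbouring peak at the same gene with a score of 335 was shared. The list is concentrated on chromosome 13, which held 29 of the 37 peaks.

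Every one of 29 peaks over U1, U2, U3, U4 or U5 genes, the RNAs of splicing and of pre-rRNA processing that RNA polymerase II transcribes, was shared with SETDB1 (100%, CI 88.1% to 100%). The shares were 22.1% over all peaks, 56.1% over the highest score class and 66.1% over the promoter peaks of that class. They comprised 8 peaks over U1, 8 over U2, 5 over U3, 1 over U4 and 7 over U5 on 8 chromosomes, and their scores ran from 97 to 3192 with a median of 1506. All 29 overlapped H3K27ac in wild-type MEFs and 0 overlapped H3K9me3. Of 357 annotated loci with these names, 30 lay under a KAP1 peak. Some of the peaks lie close together and are not independent, as the 4 U3 peaks in chr11:87256503-87285399 and the 3 U5 peaks in chr4:116862187-116884333. The highest score of any shared peak, 3192, was that of a U2 gene at chr11:101465875-101467334. Of other small nuclear RNA genes, single peaks over U11 (533) and U12 (1105) were shared, and of 2 peaks over U7 genes 1 was shared (811) and 1 was KAP1-only (221). The grouping of these genes was chosen after their values were seen.

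Peaks over U6, 7SK and Y RNA genes, which RNA polymerase III transcribes, had a median score of 3100. SETDB1 was listed at 0 of 7 peaks over U6, 0 of 2 over Y RNA and 2 of 3 over 7SK, together 2 of 12 (16.7%, CI 2.09% to 48.4%). Of these 12 peaks 7 had a score of 3100 or more, and 1 of the 7 was shared. The interval includes the 22.1% of all peaks and the 40.8% of all peaks at or above 3100. It lies below the 56.1% of the highest score class. The median score over U6 was also 3100, and a U6 peak at chr9:62980702-62981582 had the highest score of all KAP1 peaks, 3220. H3K27ac in wild-type MEFs covered 8 of the 12. Genes annotated as rRNA were different again, with 38 of 51 peaks shared (74.5%, CI 60.4% to 85.7%). They belonged to a single cluster apart from 1 peak, since chr8:126062093-126148001 held 50 of the 51 peaks, including all 38 shared ones, with a median score of 1924 and a median of 50 copies. Peaks in this cluster are not independent, and they formed the densest megabase of the KAP1 list.

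At or above the score of 3100 the groups were unlike in sequence and in marks. The 211 peaks at or above 3100 were in single-copy sequence in 69 of 86 shared and 124 of 125 KAP1-only cases. The word GTTCGANNC, on either strand, matches the B box, an internal promoter element of tRNA genes and other RNA polymerase III genes. It was present in the middle 500 bp of 80 of the 125 KAP1-only peaks (64.0%, CI 54.9% to 72.4%) and of 15 of the 86 shared peaks (17.4%, CI 10.1% to 27.1%), against 2.66% and 4.01% of the flanking windows of shared and KAP1-only peaks in the whole list and 2.08% of windows at coding starts. TGCCGC had the reverse pattern, with 19 KAP1-only (15.2%) and 44 shared peaks (51.2%). H3K27ac in wild-type MEFs overlapped 118 KAP1-only peaks (94.4%) and 40 shared peaks (46.5%), while H3K9me3 overlapped 0 KAP1-only peaks (CI up to 2.91%) and 39 shared peaks (45.3%). The middle lay in coding sequence for 23 shared peaks and 1 KAP1-only peak. With all copy classes pooled the difference in marks was not seen in the rest of the highest score class, where 664 shared and 462 KAP1-only peaks overlapped H3K27ac in 28.8% and 27.5% of cases and H3K9me3 in 29.2% and 28.4%. TGCCGC still differed there, with 59.9% and 26.8%. Among single-copy peaks of the highest class, those at 3100 included, H3K27ac overlapped 36.9% of shared and 58.6% of KAP1-only peaks and H3K9me3 29.3% and 9.85%.

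The 80 KAP1-only peaks with a B box word at the top of the scale were spread over 19 chromosomes, with 22 on chromosome 13. The word lay at a median of 43 bp from the middle of the peak and within 100 bp of it in 57 cases, and 76 of these peaks overlapped H3K27ac in wild-type MEFs. Their median width was 1032 bp, against 1552 bp for the 86 shared peaks at or above 3100. tRNA genes are not in the annotation used, and whether these peaks lie over such genes was not tested. The peaks carry the names of other annotated genes, and 27 of the 80 were promoter peaks. Among all 452 single-copy peaks with the word, 37 (8.19%, CI 5.83% to 11.1%) were shared, against 9.89% of all single-copy peaks. In the highest score class they were shared in 26 of 137 cases, against 57.4% of all single-copy peaks there. Windows of 80 bases around the word from a pair of these peaks are printed from mm9 with the match in capitals, since they show where the strongest KAP1-only signal lies. They are chr1:34491653-34491732 (- strand, score 3100, nearest to AC106841.1) and chr1:172967156-172967235 (- strand, score 3100, nearest to a U1 gene but 9068 bp from its start). They lie outside annotated exons.
AC106841.1: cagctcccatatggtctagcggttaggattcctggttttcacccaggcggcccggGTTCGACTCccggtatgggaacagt
U1: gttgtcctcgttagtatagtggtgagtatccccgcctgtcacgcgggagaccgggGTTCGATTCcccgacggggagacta

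Among the highest peaks, ties at 3100 being taken in genome order, the KAP1-only group included intergenic peaks nearest to Mdm4, an inhibitor of p53, and Glrx2, a mitochondrial glutaredoxin, promoter peaks of B230208H11Rik and Ctnna3, which encodes an alpha-catenin, and intronic peaks of Trim7, Gm11280 and Gm11292. The peak nearest to Glrx2 also held the B box word. KAP1-only exonic peaks were weaker, the highest being those of Gm17395 (1182) and Prdm12 (1072). The shared group included promoter peaks of Gm9947, Gm10925, Spata3 and Obsl1, which encodes a cytoskeletal protein, intergenic peaks near Mpzl1, Fcgr3 and 1700009P17Rik, exonic peaks of Spred2, an inhibitor of Ras signalling, and Scrt1, a transcriptional repressor, and intronic peaks of Habp4, Tmem161b and Trappc9. Of these shared peaks those of Gm9947, Spata3, Spred2, Scrt1, Habp4, Tmem161b, Trappc9 and Fcgr3 overlapped H3K9me3 in wild-type MEFs, whereas those of Gm10925, Obsl1, Mpzl1 and 1700009P17Rik did not. None of the KAP1-only peaks just named did.

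Promoters of protein-coding genes held a larger part of the KAP1-only than of the shared group. A protein-coding start lay within 1 kb of 3538 KAP1-only peaks (34.0%) and of 367 shared peaks (12.4%). Of 47 peaks at ribosomal protein genes, 46 were KAP1-only with a median score of 154, and the exception, Rps29, was shared with a score of 3100. All 47 overlapped H3K27ac in wild-type MEFs, as did 86.2% of all KAP1-only promoter peaks. The next scores in this list were those of Rps20 (579), Rps19 (501), Rps21 (434), Rpl27 (382) and Rpl37 (372). Immediate early and AP-1 genes, which respond rapidly to stimulation, had 1 shared peak, at Atf3 (891), and 11 KAP1-only peaks, the highest at Egr2 (545), Jund (328) and Ier3 (217). Cell cycle and p53 genes had 0 shared and 12 KAP1-only peaks, led by Cdk4 (647), Myc (640) and Cdk6 (364). Housekeeping genes had 2 shared peaks, the higher at Actb (764), which encodes beta-actin, and 13 KAP1-only peaks, among them Tuba1b (394) and Gapdh (379). Since 11.8% of all promoter peaks were shared, and 2.98% of single-copy promoter peaks in the lower 9 score classes, counts of 0 or 1 of 12 do not set these short lists apart.

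The promoters of the KAP1-only group held the words of promoter-bound activators more often. In single-copy promoters CCGGAAG, the core of ETS factor sites, was present in 26.9% of KAP1-only and 6.96% of shared peaks, and GCGCATGCG, the word of NRF1, in 7.52% and 0.836%. Windows at all coding starts held them in 13.4% and 2.15% of cases. GGGCGG, the GC box, was present in 74.5% of KAP1-only and 54.3% of shared single-copy promoters and in 48.1% of coding starts. In the highest score class the differences in the GC box, with 54.1% and 53.6% (shared minus KAP1-only -0.483 points, CI -10.4 to 9.58), and in the NRF1 word, with 1.35% and 0.397% (-0.955 points, CI -4.41 to 1.11), were not resolved, while the ETS word was found in 14.2% and 5.56%. Words were searched on both strands. A pair of KAP1-only promoters with repeated ETS words is printed from the + strand of mm9, outside annotated exons, with CCGGAAG or its complement CTTCCGG in capitals. They are chr1:127332291-127332390 (Actr3, a subunit of the actin-nucleating Arp2/3 complex, score 364) and chr7:133935998-133936097 (Ppp4c, the catalytic subunit of protein phosphatase 4, score 350).
Actr3: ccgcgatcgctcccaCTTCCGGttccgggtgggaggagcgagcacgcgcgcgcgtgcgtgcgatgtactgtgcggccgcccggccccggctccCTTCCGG
Ppp4c: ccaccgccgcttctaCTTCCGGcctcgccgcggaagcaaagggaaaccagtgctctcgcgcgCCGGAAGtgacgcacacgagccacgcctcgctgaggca

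Strong promoters with SETDB1 differed from those without it in marks and in words. Among single-copy promoter peaks of the highest score class, 252 of 400 (63.0%) were shared. Of these 252 peaks 29.0% overlapped H3K9me3 and 55.6% overlapped H3K27ac in wild-type MEFs, against 4.73% and 84.5% of the 148 KAP1-only peaks. TGCCGC was found in 67.5% of the shared and 37.8% of the KAP1-only peaks of this class, and the B box word in 11 of the 252 and in 37 of the 148. In the lower 9 classes 107 of 3588 single-copy promoter peaks (2.98%) were shared, and H3K9me3 overlapped 7.48% of the shared and 2.70% of the KAP1-only peaks.

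Away from promoters, KAP1-only peaks in single-copy sequence often held the AP-1 word TGACTCA, with 29.6% against 12.0% of shared peaks. In all peaks the shares were 17.0% for KAP1-only and 3.96% for shared peaks, against 8.56% and 7.41% of their flanking windows and 6.41% of coding starts. Words of liver factors were infrequent or followed the repeats. CAAAGTCCA (HNF4A) was found in 0.586% of KAP1-only and 0.237% of shared peaks and TTGCGCAA (C/EBP) in 0.250% and 0.135%. TGTTTAC (FOXA) was more frequent in shared peaks, 17.7% against 9.83%, but in single-copy sequence it was found in 5.84% and 7.85%. An intergenic KAP1-only peak whose nearest start is that of A530006G24Rik (score 1015) is shown because its middle repeats the AP-1 word, marked in capitals, 5 times in the window chr2:147569836-147569915 (+ strand of mm9, outside annotated exons).
A530006G24Rik: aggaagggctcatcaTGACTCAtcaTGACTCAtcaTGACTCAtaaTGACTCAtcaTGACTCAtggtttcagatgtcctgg

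Words of CRE and YY1 also followed copy class, while the E box did not. TGACGTCA (CRE) was found in 16.6% of shared and 2.83% of KAP1-only peaks, and AAGATGGCG (YY1) in 11.1% and 4.08%. Within single-copy sequence both turned round, with 1.14% and 2.86% for CRE and 0.686% and 2.62% for YY1. Peaks with 100 or more copies held CRE in 30.4% of the shared and 8.71% of the KAP1-only group, and YY1 in 293 of 1539 and 91 of 689 peaks. CACGTG (E box) was found in 4.46% of shared and 11.4% of KAP1-only peaks and was less frequent in shared peaks in all 4 copy classes, although at 2 to 9 copies the difference was not resolved. By place it was less frequent in shared peaks at promoters, introns and intergenic sites, but not at exons, with 14.8% and 14.5%. In single-copy peaks away from promoters the shares were 10.1% and 9.07%. In single-copy peaks of the highest score class they were 10.4% and 10.6% (-0.171 points, CI -4.25 to 3.70). AGNNGGCGC (CTCF) was found in 15.5% and 12.0%, and in single-copy sequence in 13.4% and 12.2%, a difference of 1.24 points (CI -0.982 to 3.76) that was not resolved. The single-copy difference was 5.81 points (CI 1.57 to 9.89) in the highest score class and -1.90 points (CI -4.86 to 1.95) in the lower 9. At 10 to 99 copies the CTCF word was less frequent in shared peaks, with 7.23% and 13.1% (-5.86 points, CI -9.36 to -1.87). Shared peaks had a median GC content of 47.6% and a median observed-to-expected CpG ratio of 0.631, against 49.1% and 0.385. The lower GC median of shared peaks was seen within the class of 100 or more copies alone, with 47.29% against 47.58%. It was 51.40% against 51.31% in single-copy sequence, 48.50% against 45.55% at 2 to 9 copies and 48.40% against 45.43% at 10 to 99 copies.

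Over all peaks the marks of MEFs divided the groups in opposite directions. H3K9me3 of wild-type MEFs overlapped 599 shared peaks (20.3%) and 1255 KAP1-only peaks (12.1%), a difference of 8.20 points (CI 6.65 to 9.81) that was 5.18 points with MEF peaks of score 80 or more and 5.14 points without the tenth of KAP1 peaks with the highest score. H3K27ac overlapped 388 shared peaks (13.1%) and 4541 KAP1-only peaks (43.6%), a difference of -30.5 points (CI -32.0 to -28.9). These directions did not hold in every copy class or place. H3K27ac covered fewer of the shared peaks in single-copy sequence, 35.6% against 55.5%, but more of them at 2 to 9 copies, 18.4% against 7.67%, and at 10 to 99 copies, 8.43% against 4.99%, and it was rare in both groups at 100 or more copies, 0.650% and 0.581%. H3K9me3 covered more of the shared peaks in single-copy sequence, 22.1% against 7.42%, and at 2 to 9 copies, 39.6% against 29.8%, and fewer at 10 to 99 copies, 25.9% against 31.8%. The single-copy difference in H3K9me3 was larger in the highest score class, 29.3% against 9.85%, and in the lower 9 classes, with 10.1% against 7.29%, it was not resolved (2.80 points, CI -0.0808 to 6.58). At 100 or more copies its shares were 15.3% and 18.1%, a difference of -2.81 points (CI -6.31 to 0.485) that was not resolved. By place, H3K9me3 covered 21.4% of shared and 3.34% of KAP1-only promoter peaks, whereas intergenic peaks had shares of 18.6% and 19.1%, a difference of -0.417 points (CI -2.52 to 1.77).

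In Kap1 KO MEFs few of these loci lay in an H3K9me3 peak. The mark overlapped 37 shared peaks (1.25%) and 37 KAP1-only peaks (0.356%), in a list of 4319 peaks against 14425 in wild type. The list is shorter for the whole genome, and the part of library depth in this was not tested. H3K27ac in Kap1 KO cells overlapped 442 shared peaks (14.9%) and 4865 KAP1-only peaks (46.7%). Peaks with H3K27ac in Kap1 KO but not in wild-type cells were 103 of the shared (3.48%) and 518 of the KAP1-only group (4.98%), and those with it in wild-type cells alone were 49 (1.66%) and 194 (1.86%). The direction for Kap1 KO alone was the same at introns and intergenic sites. At promoters it was turned round, with 2.38% and 0.900% (1.48 points, CI 0.407 to 3.23). In single-copy sequence the shares were 5.03% and 4.82%, a difference of 0.211 points (CI -1.14 to 1.93) that was not resolved.

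Smaller gene lists gave few peaks. Hepatocyte genes had 0 shared and 3 KAP1-only peaks, at Cebpa (146), Nr1h4 (120) and Cebpb (82), and interferon genes had 0 and 6, led by Ddx58 (259), an RNA sensor. Genes of the KAP1 silencing machinery had 2 shared peaks, in an intron of Trim24 (502) and at the promoter of Atf7ip (321), a partner of SETDB1, and 10 KAP1-only peaks, led by the HP1 genes Cbx5 (355) and Cbx3 (226). Germline genes had 2 shared peaks, at the promoter of Fkbp6 (2374), which acts in meiosis, and in Mov10l1 (110), and 3 KAP1-only peaks. Hox genes had 4 shared promoter peaks, at Hoxa11 (1408), Hoxb6 (1116), Hoxd13 (624) and Hoxc6 (423), and 13 KAP1-only peaks, led by Hoxb3 (1058) and Hoxa10 (797). Cyp genes had 7 and 9, with Cyp2u1 (1724) and Cyp26b1 (1618), a retinoic acid hydroxylase, as the highest shared promoters. Olfactory receptor genes had 1 shared peak, at Olfr94 (1183), and 4 KAP1-only peaks, vomeronasal genes 1 and 7, and protocadherin genes 2 and 1. With so few peaks the shares are loosely bounded and do not set these lists apart from the 22.1% of all peaks, as for the Hox genes with 23.5% (CI 6.81% to 49.9%). The Cyp genes came closest, with a share of 43.75% (CI 19.75% to 70.12%). Their difference between the groups was 0.150 points, with a CI of 0.00556 to 0.405 that excludes 0.

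The genes with most peaks were taken for each group. Fcgr3, an immunoglobulin receptor gene, had 9 shared and 5 KAP1-only peaks in chr1:172973634-173012930, and it was followed by 2810474O19Rik with 6 and 6, Gm8935 with 6 and 4, Gm11804 with 5 and 1, and Neat1, the RNA of paraspeckles, with 5 and 1. In the KAP1-only group the counts were 17 for Gm15487, 15 for Gm20388, 12 for a U6 gene on chromosome 15, 11 for Prickle1, a gene of planar cell polarity, and 10 for Flt1, a receptor of vascular growth factor. These genes had 2, 1, 0, 2 and 1 shared peaks. The genes were chosen by these counts.

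Chromosomes differed in their share of SETDB1, and the density of KAP1-only peaks varied more between them than that of shared peaks. The share was lowest on chromosomes 19 (13.8%), 11 (15.2%) and 15 (15.4%) and highest on 13 (30.4%), 9 (31.3%), 12 (34.6%), 14 (34.7%), 16 (35.9%) and X (50.7%, 112 of 221, CI 43.9% to 57.5%). Over the 19 autosomes and X, shared peaks ranged from 0.672 to 1.70 per Mb, a 2.52-fold range, and KAP1-only peaks from 0.654 to 7.95 per Mb, a 12.2-fold range. Within copy classes the shares with SETDB1 varied less, from 56.6% on chromosome 6 to 60 of 75 peaks on chromosome 16 at 100 or more copies and from 6.55% to 17.2% in single-copy sequence. Both peaks on chromosome Y were shared. The chromosome copy numbers of this hepatoma line were not analysed, and their part in these densities was not tested.

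Shared peaks tended to lie beside each other. The closest KAP1 peak was itself shared for 1300 shared peaks (44.0%, CI 42.2% to 45.8%) and for 1838 KAP1-only peaks (17.7%, CI 16.9% to 18.4%). Where that neighbour lay within 10 kb, the shares were 60.3% and 17.4%. When peaks under 10 kb apart were joined, 10699 loci resulted, of which 2429 held a shared peak and 538 held peaks of both kinds. The densest megabases were chr8:126000001-127000000 with the rRNA cluster (39 of 55 peaks shared), chr19:5000001-6000000 with Neat1 (7 of 46) and chr13:23000001-24000000 with histone genes (14 of 42).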

How the data were processed

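The authors deposited each list with 1 score per peak from the peak caller and no read counts. Per the submitters' processing notes, Bowtie2 2.2.1 aligned the reads to mm9 and MACS 1.4 found the peaks, with total input as control and a lowest score of 80. The scores were used as deposited and are not scaled between libraries. In the MEF lists scores started at 50, and all peaks were kept.

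KAP1 peaks were split by exact match of coordinates with the SETDB1 list. A peak within 1 kb of a transcript start (GENCODE annotation of mm9) was a promoter peak, and the others were exonic, intronic or intergenic by their middle. A mark was overlapped at 1 bp or more. A peak was named after the gene whose start lay within 1 kb, else the gene over its middle, else the closest start. Words were searched on both strands in the middle 500 bp, in windows of that length 5 kb to either side and at coding starts. Linker codons were searched in 6 frames. Copies of 24-base words were counted over the whole mm9 sequence. Shares carry Clopper-Pearson intervals and differences of shares carry Newcombe intervals, at 95%, and they cover counting error only. No test was run. Computation used Python 3.11.15 with numpy 2.4.6, pandas 2.3.3, scipy 1.17.1, statsmodels 0.14.6, numba 0.67.0 and pysam 0.24.0, and it was checked on simulated data.

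The members and lists were chosen with earlier results of these data known. Named are the 10 highest peaks of each group, the 3 highest of each place, up to 6 members of each of 16 gene lists by score (imprinted, zinc finger, histone, ribosomal protein, immediate early and AP-1, cell cycle and p53, housekeeping, hepatocyte, interferon, KAP1 silencing machinery, germline, Hox, Cyp, olfactory, vomeronasal and protocadherin) and the 5 genes with most peaks. Ties were taken in genome order. Copy classes, sequence families, the grouping of small RNA genes and any further name were chosen after the values were seen.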

Additional observations from a re-analysis of the deposited data

How the results depend on the processing

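Across 12 results and 79 alternatives, 45 values stayed within the interval of the reported one and 33 left it. In 1 case a difference whose reported interval had excluded 0 took the other sign, with an interval that included 0. The intron and zinc finger differences, whose reported intervals include 0, also took the other sign once each. Of the alternatives 15 were chosen after seeing the data, namely single-copy peaks alone and leaving out the tenth of peaks with the highest score. Differences below are shared minus KAP1-only, in percentage points unless stated. The causes of the changes were not tested.

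With single-copy peaks alone the intergenic difference fell to -0.188 (CI -3.41 to 3.17), so that its sign was not resolved. In the same peaks the share with SETDB1 was 9.89%, the score ratio 5.53 and the width difference 318.5 bp. The differences there were -4.50 for promoters, -1.93 for introns, 14.7 for H3K9me3, -20.0 for H3K27ac and 1.68 for zinc finger genes. Without the tenth of peaks with the highest score the share was 18.4%, and the differences were -28.7 for promoters, 26.9 for intergenic sites, 5.14 for H3K9me3, -36.6 for H3K27ac and -0.482 for zinc finger genes. With the 50% of peaks with the highest scores the share was 27.9%, the score ratio 1.66, the width difference 159.5 bp, and the differences were -14.0 for promoters, 10.9 for intergenic sites, 10.6 for H3K9me3 and -25.5 for H3K27ac. With peaks under 10 kb apart joined the score ratio was 1.51, the width difference 129 bp and the H3K9me3 difference 9.82. With KAP1-only peaks weighted to the scores of shared peaks the width difference was 40 bp and the H3K9me3 difference 5.61. With MEF peaks of score 80 or more the H3K9me3 difference was 5.18, and with coding starts alone the promoter difference was -21.6. For exons, linkers and GC content, 12 of 17 alternatives stayed within the interval and 5 left it without a change of sign. The exon difference of 1.44 was 2.63 with the 50% of peaks with the highest scores and 2.47 with coding starts alone. The linker difference of 1.97 was 3.01 with the 50% of peaks with the highest scores. The GC difference of -1.50 was -0.775 with KAP1-only peaks weighted by score and -0.800 in the middle 500 bp. The remaining alternatives, among them leaving out chromosomes X and Y, stayed within the interval.

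No paired analysis was possible because each factor has 1 library. A planned measure of repeat-masked bases was not run, since the reference sequence used carries no masking. Absence from the SETDB1 list is absence of a call at an unknown depth. The score ceiling hides differences among the highest peaks, and SETDB1 was profiled in a single cell line.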
